A study of Homo sapiens with 8 samples.

Results

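Depletion of TARG1 in OVCAR3 ovarian cancer cells was examined here through ribosome footprints over every coding sequence with at least 10 footprints summed over the 4 libraries of the comparison, 12056 of 20165 gene regions. Another 8109 regions fell below that minimum, 6272 of them with no coding footprint in these libraries. At the edge of the rule, 70 regions held exactly 10 counts and entered, and 83 held 9 and did not. The comparison sets cells transfected with siRNA against OARD1, the gene that encodes TARG1 (siTARG1), against cells transfected with a control siRNA (siControl). Both siRNAs were used at 30 nM, both groups were harvested after 48 h, and each group has 2 ribosome profiling libraries of OVCAR3, an established human ovarian cancer line. The methods list 2 siRNAs for TARG1, and which of them these libraries received is not given in the sources used here. The other 4 of the 8 libraries come from OVCAR3 cells whose own RACK1 was knocked down under 1 µg/ml doxycycline and in which RACK1 was put back, either unaltered (RACK1-WT) or with the residues that carry mono-ADP-ribose mutated (RACK1-Mut). They were also harvested after 48 h and serve below only as another contrast. The methods state that independent biological samples were used in the sequencing work, the labels add nothing on the cultures, and the p-values rest on the spread between 2 libraries a group.

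TARG1 is a hydrolase that cuts ADP-ribose from acidic residues of proteins, and thereby reverses mono-ADP-ribosylation (MARylation) set by enzymes of the PARP family such as PARP14. RACK1, a scaffold protein of the small ribosomal subunit, is a MARylated protein in these cells according to the study, which asked how its modification bears on translation and on stress granules, the condensates of stalled mRNA and protein that form under stress. Ribosome profiling sequences the mRNA fragments that ribosomes shield from nuclease, so footprints on a coding sequence follow both the amount of an mRNA and how densely ribosomes occupy it. Those parts cannot be told apart in footprint counts alone, nor can a change in the make-up of the cell population.

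Sites of 2 kinds of short sequence in 3′ UTRs recur through the results, so examples are shown first. Every 7-base word (7-mer) was ranked by the difference in mean log2 fold change between regions whose annotated 3′ UTR holds it and regions whose 3′ UTR does not. Among 10485 such words held by at least 500 of the 8026 regions whose normalized counts averaged 50 or more, GAACATA and TGAACAT ranked first and second toward lower footprints in siTARG1 cells, and GAATATA and TGAATAT ranked first and second toward higher ones. The minimum of 500 was chosen after a ranking with the planned minimum of 100 regions had been seen. Among the 14997 words of that ranking GAACATA and TGAACAT also held ranks 1 and 2 toward lower footprints. GAATATA and TGAATAT held ranks 3 and 7 toward higher ones, behind rarer words such as CGAATAT. The members of each pair overlap and join into the 8-base words TGAACATA and TGAATATA. siRNAs are known to lower, beside their target, mRNAs whose 3′ UTR pairs with the bases near the 5′ end of the siRNA. The sequences of the siRNAs are not given in the sources used here, and whether either pair belongs to them was not tested.
The following sites of the first pair lie in the 3′ UTRs of the targeted gene and of 4 regions whose footprints fell, in the sense of the mRNA, 5′ to 3′, with the 7-mer or 8-mer in capitals.
OARD1: accagTGAACATtttggatgt
PRDX3: gtttctacaGAACATAatttgcctc
TENT5C: taaaatgtgGAACATAatgtttaat
PLEKHB2: atacttggaGAACATAtcccacatt
VCAN: acctgaaaaTGAACATAgtatgctag
The following sites of the second pair lie in the 3′ UTRs of 5 regions whose footprints rose.
SETD7: atgatagaaTGAATATAtttaaatga
ZC3HAV1L: aacaaatttTGAATATAactcctgtc
PDHX: cttgagtcgGAATATAtttaaataa
CDH1: agctatatcGAATATAgttctgtgt
TIA1: tatgtaaagGAATATAttaatttgc
On GRCh37 the first set lies at chr6:41035053-41035073 (minus strand), chr10:120927735-120927759 (minus), chr1:118167392-118167416 (plus), chr2:131905006-131905030 (plus) and chr5:82877300-82877325 (plus). The second lies at chr4:140428691-140428716 (minus), chr7:138710567-138710592 (minus), chr11:35017474-35017498 (plus), chr16:68869266-68869290 (plus) and chr2:70438740-70438764 (minus). OARD1 and TENT5C each hold another site of the first pair, and VCAN also holds 1 site of the second pair.

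OARD1 had 121 and 69.1 normalized coding counts (counts divided by the size factor of the library) in siControl and 5.83 and 6.75 in siTARG1 cells, so both siTARG1 libraries lay far below both siControl libraries. The gene spans chr6:41001366-41065526, and is read from the minus strand. The log2 fold change of its footprints was -3.94 (SE 0.557, DESeq2 adjusted p 9.31e-11), a 15.4-fold lower level. The siControl libraries differed from each other on this gene, and the value ran from -4.28 to -3.47 when each library was left out in turn.

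Library totals did not follow the groups. Coding counts summed to 4207939 and 3100947 in siControl and to 4207861 and 3145173 in siTARG1. The share of exon counts in 5′ UTRs was 3.92% and 4.28% in siControl and 3.98% and 4.29% in siTARG1. Both measures went with the replicate number, and whether same-numbered libraries share a batch is not given in the labels. Over regions with a mean of at least 50, libraries of the same group differed by a chi-square per region of 2.55 and 2.37, and libraries of different groups by 15.4 to 21.4. The labelled cell type was checked with 24 epithelial and ovarian markers, of which 19 had at least 10 counts. Summed normalized counts of these markers were 49625 and 48770 in siControl and 32708 and 37581 in siTARG1, with KRT8, KRT18 and MUC16 the largest in every library. Those of 9 fibroblast markers were 198 and 205 against 169 and 135, mostly from COL1A1 and ACTA2, with DCN and FAP at 0. Those of 10 immune markers were 51.0 and 44.1 against 32.5 and 39.4, mostly from CD68 and CD14, with 6 at 0, PTPRC and CD3E included. Those of 5 endothelial markers were lower in both siTARG1 libraries, at 22.9 and 14.3 against 4.16 and 3.37, with CDH5 and TEK at 0. The part of these cell types in the results was not tested. Among the 12056 regions tested, 1974 (16.4%) were called at an adjusted p under 0.05, 866 (7.18%) with more footprints in siTARG1 cells and 1108 (9.19%) with fewer. All 1974 had both libraries of a group beyond both of the other, which 62.6% of all regions tested also showed. Statements below that the groups of a called gene were apart or did not overlap therefore add nothing to its call. With 1 library left out the fits called 564 (without siTARG1 replicate 1) to 744 (without siControl replicate 2) regions, 631 without siControl replicate 1 and 717 without siTARG1 replicate 2. Of the 1974, 438 were called in each of these 4 fits, 1017 in none, and none turned direction. Below, "rose" and "fell" are used of called regions alone, and each value in brackets after a gene is its log2 fold change with its standard error (SE).

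The share of regions called grew with the level of footprints. It was 0.404% below a mean of 10 normalized counts, 4.77% from 10 to 30, 11.5% from 30 to 100, 19.6% from 100 to 300, 29.5% from 300 to 1000 and 39.4% from 1000. Among the 6133 regions with a mean of at least 100 it was 25.0%. In the highest level 186 of 690 regions fell and 86 rose, whereas from 30 to 100 the numbers were 182 and 176. A count of called members in a class of highly translated genes therefore has to be read against a higher share than the 16.4% of all regions. Calls of a rise also became more frequent with coding length among regions with a mean of at least 100, from 7.08% among the 1525 shortest to 14.5% among the 1536 longest, and calls of a fall went from 15.3% to 12.8%.

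**Figure D1:**
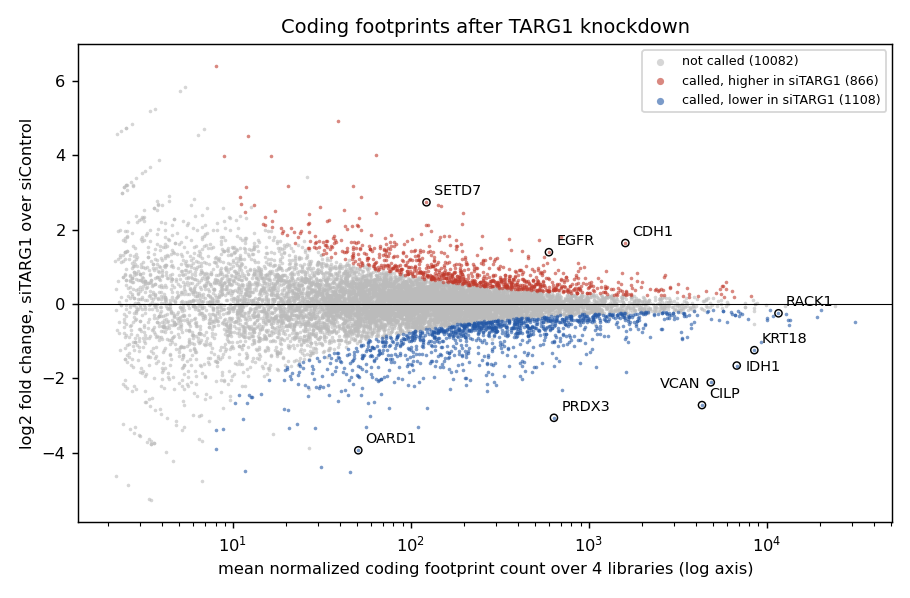
Log2 fold change of coding footprints (siTARG1 over siControl, vertical axis) against the mean normalized count of the 4 libraries (horizontal log axis), 1 point per region tested, with regions called higher and lower in colour. The 866 higher and 1108 lower regions spread over all but the lowest levels, with OARD1 at -3.94.

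The 10 largest rises by the rule for naming genes ran from 1.84 to 2.74 on the log2 scale. SETD7, a lysine methyltransferase, had 30.8 and 33.4 normalized counts in siControl and 214 and 213 in siTARG1 cells (2.74, SE 0.292, adjusted p 1.12e-18), a 6.67-fold rise with little spread inside either group. DCP2, the catalytic subunit that removes the mRNA cap before decay, went from 29.9 and 48.9 to 226 and 265 (2.67, SE 0.285). ZC3HAV1L, a relative of the zinc finger antiviral protein, went from 45.7 and 35.8 to 238 and 271 (2.63, SE 0.269). Neither of these overlapped between groups. CLDN12, a claudin of cell junctions, went from 57.1 and 66.8 to 335 and 332 (2.44, SE 0.226). PDHX, the component that binds the E3 enzyme in the pyruvate dehydrogenase complex, went from 69.4 and 73.9 to 311 and 319 (2.14, SE 0.221). LAMB3, a laminin chain of epithelial basement membranes, went from 43.9 and 48.9 to 186 and 222 (2.14, SE 0.277). The remaining rises of the 10 were TBC1D5 (2.12, SE 0.31), CSF1 (1.97, SE 0.296), OXR1 (1.89, SE 0.281) and LCLAT1 (1.84, SE 0.473), whose members include the growth factor of macrophages (CSF1) and a factor of resistance to oxidants (OXR1). TBC1D5 and LCLAT1 had siControl libraries of unequal level, 29.9 and 63.2 for TBC1D5 and 44.8 and 90.6 for LCLAT1. Without siTARG1 replicate 1 or 2 neither was called, and without siControl replicate 1 the values were 1.64 and 1.40.

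The 10 largest falls ran from -3.31 to -2.17. PRDX3, the peroxiredoxin of the mitochondrial matrix that removes hydrogen peroxide, had 1064 and 1215 normalized counts in siControl and 128 and 145 in siTARG1 cells (-3.07, SE 0.147, adjusted p 1.26e-93), an 8.37-fold lower level. CILP, a secreted matrix protein known from cartilage and among the most heavily translated mRNAs here, went from 7514 and 7536 to 1090 and 1194 (-2.72, SE 0.0732, adjusted p 3.81e-299). The libraries of each group lay close together for both. TENT5C, a cytoplasmic poly(A) polymerase, went from 184 and 252 to 32.5 and 29.2 (-2.81, SE 0.304). FFAR4, a receptor for long-chain fatty acids, went from 183 and 213 to 15.0 and 25.9 (-3.31, SE 0.34), and RBP4, the plasma carrier of retinol, from 1146 and 1218 to 242 and 229 (-2.32, SE 0.126). The spans of FFAR4 (chr10:95326422-95364237, plus strand) and RBP4 (chr10:95351444-95361501, minus strand) overlap on opposite strands, so the values of FFAR4 and RBP4 may not be independent. The other falls were PLEKHB2 (-2.34, SE 0.194), the chemokine CXCL1 (-2.29, SE 0.242), the thrombin receptor F2R (-2.20, SE 0.313), ERLIN2 of the endoplasmic reticulum (-2.19, SE 0.18) and the secretory protein disulfide isomerase AGR2 (-2.17, SE 0.235). All 10 were called in each of the 4 fits without a library.

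**Figure D2:**
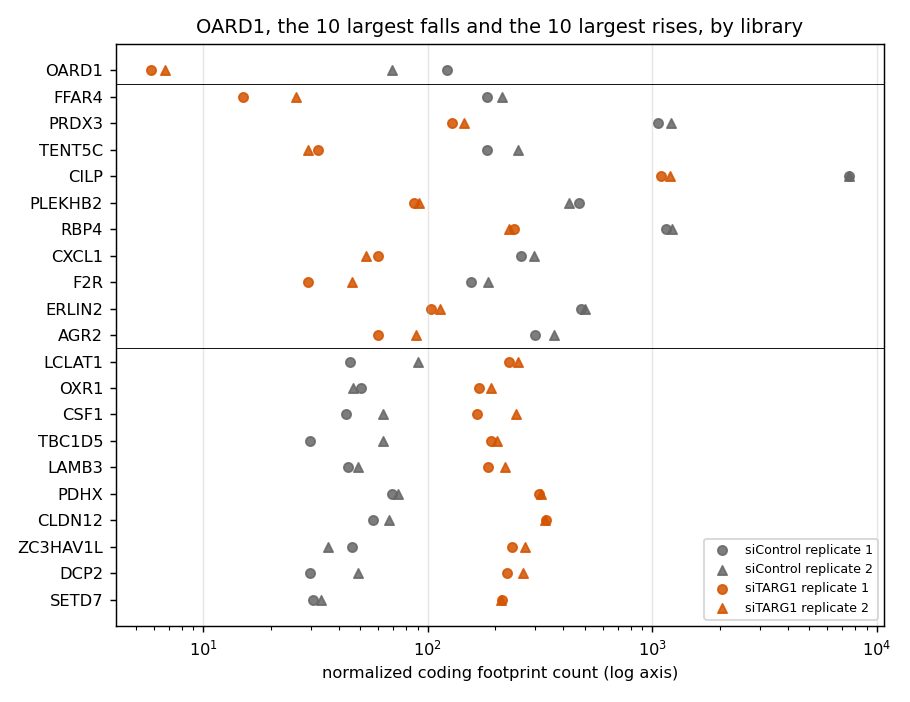
Normalized coding counts (log axis) of OARD1 and of the regions with the largest rises and falls in each of the 4 libraries, 1 point per library, siControl and siTARG1 in different colours. For each region both siTARG1 libraries lie on the same side of both siControl libraries, which the naming rule required of the rises and falls. Examples are SETD7 (30.8 and 33.4 against 214 and 213) and PRDX3 (1064 and 1215 against 128 and 145).

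Of the genes of ADP-ribosylation, OARD1 alone was called with a change of at least 1 on the log2 scale. Of the 32 genes of this class tested, 6 were called (18.8%, beside 16.4% of all regions). Among the 22 with a mean of at least 100, 5 were called, beside 25.0% of all such regions. Of 9 writers of mono-ADP-ribose tested, 1 rose and none fell, with a median log2 fold change of 0.12 beside 0.0031 over all regions. That writer was PARP14, at 2571 and 2097 counts in siControl and 2788 and 2773 in siTARG1 cells (0.25, SE 0.0932, adjusted p 0.0426). Its groups lay close to each other, the call was lost in 3 of the 4 fits without a library, and the value went to 0.40 without siControl replicate 1 and to 0.11 without siControl replicate 2. Among 5 writers of poly-ADP-ribose, the tankyrases TNKS (251 and 246 against 435 and 425, log2 fold change 0.79, SE 0.158) and TNKS2 (323 and 300.4 against 521 and 458, log2 fold change 0.65, SE 0.152) rose. PARP1, which modifies chromatin at DNA breaks and was named after its values were seen, had 766 and 764 against 749 and 717 (adjusted p 0.799). Of 10 genes in the list of erasers, OARD1 fell. NUDT9, held in that list as a mitochondrial ADP-ribose pyrophosphatase, rose (103 and 119 against 185 and 187, log2 fold change 0.75, SE 0.234), a call that no fit without a library kept. NAMPT, the rate-limiting enzyme of NAD salvage and the 1 called gene of 8 in NAD supply, went from 382 and 384 to 627 and 562 (0.64, SE 0.137, named after its values were seen). The other genes in the list of erasers gave no call, and MACROD1 had 156 and 157 against 171 and 149.6 (0.04, SE 0.225, also named afterwards).

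RACK1 had 12320 and 13029 normalized counts in siControl and 10037 and 11268 in siTARG1 cells (-0.25, SE 0.0688, adjusted p 0.00297), so its groups were apart by less than the fold of most called genes. It was called in 2 of the 4 fits without a library, where the value ran from -0.33 to -0.17. G3BP1, the nucleator of stress granules, had 1729 and 1934 against 1831 and 1840 (0.01, SE 0.0872, adjusted p 0.983), and AKT1 had 224 and 217 against 237 and 210.3 (0.02, SE 0.192, adjusted p 0.963). The groups overlapped for G3BP1 and AKT1.

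Single stress granule proteins were called, at a share close to that of other regions of like level. Of 32 core proteins tested, 3 rose and 7 fell (31.2% called, beside 25.0% of all regions with a mean of at least 100), with a median of -0.04. TIA1, an RNA-binding protein that helps to form stress granules, had 87.9 and 78.7 counts in siControl and 270 and 232 in siTARG1 cells (1.59, SE 0.232), a 3.01-fold rise. The m6A reader YTHDF3 (0.69, SE 0.223) and ATXN2L (0.32, SE 0.095) also rose. In the other direction, STAU1, which binds double-stranded RNA, went from 948 and 896 to 440.3 and 485 (-1.0, SE 0.12). G3BP2, the close relative of G3BP1, went from 1391 and 1432 to 778 and 842 (-0.80, SE 0.0993). CAPRIN1, which binds the G3BP proteins, went from 3137 and 3215 to 2024 and 1978 (-0.67, SE 0.0744). TIA1, STAU1, G3BP2 and CAPRIN1 were called in each fit without a library and showed no overlap between groups, whereas YTHDF3 was called in 1 such fit and ATXN2L in none.

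Ribosomal proteins gave more falls than rises, by small amounts, and so did highly translated genes as a whole. Of 29 small-subunit ribosomal proteins, 8 fell and 1 rose (31.0% called, median -0.10), and of 46 large-subunit ribosomal proteins, 8 fell and 1 rose (19.6%, median -0.14), beside 25.0% of all regions with a mean of at least 100 and 39.4% of those with a mean of at least 1000, where 186 fell and 86 rose (median -0.07). RPS24 went from 2487 and 2501 to 1603 and 1745 (-0.58, SE 0.0819) and RPL27 from 1613 and 1787 to 1233 and 1365 (-0.39, SE 0.0957). RPL23A (0.40, SE 0.0832) and RPS2 (0.30, SE 0.0826) were the members that rose, and RPS2 went to 0.42 without siTARG1 replicate 1 and to 0.19, with no call, without siTARG1 replicate 2. Reads of ribosomal protein genes can match pseudogenes, so these values are uncertain.

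Of 36 initiation factors 9 fell and 2 rose (median -0.06). That is 30.6% called, beside 25.0% of all regions with a mean of at least 100. EIF3J, a loosely bound part of the initiation factor that coats the small subunit, went from 348 and 364 to 243 and 183 (-0.73, SE 0.184), EIF2B2 of the exchange factor for eIF2 from 613 and 546 to 377 and 389 (-0.60, SE 0.139), and EIF3B from 570 and 486 to 342 and 380.1 (-0.55, SE 0.148). Both groups were apart for each of them. PABPC4, a cytoplasmic poly(A)-binding protein, rose from 308 and 275 to 557 and 536 (0.90, SE 0.147). EIF2AK4, the kinase that senses uncharged tRNA, rose from 94.9 and 94.2 to 176 and 184 (0.93, SE 0.242). It belongs to another list, of the response to stalled ribosomes, in which 2 of 14 genes rose and none fell (14.3% called). Of 22 cytosolic tRNA synthetases 8 fell and none rose (median -0.10). That is 36.4% called, beside the same 25.0%. The falls were led by NARS1 at 1204 and 948 against 623 and 552 (-0.87, SE 0.13) and FARSB at 364 and 464 against 260 and 280.0 (-0.61, SE 0.171). NARS1, PABPC4 and RPS24 were called in each fit without a library. EIF2B2, RPL27 and RPL23A were called in some of them, EIF3J, EIF3B and FARSB in 1, and EIF2AK4 in none. The mitochondrial ribosome, with 71 subunits tested, had 8 falls and 1 rise (12.7% called, below the 25.0% of regions with a mean of at least 100; median -0.15), with MRPL9 (258 and 269 against 154 and 129, log2 fold change -0.89, SE 0.205) as an example.

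Genes of cell junctions changed in both directions. CDH1 (E-cadherin), the cadherin of epithelial junctions, had 764 and 799 normalized counts in siControl and 2388 and 2481 in siTARG1 cells (1.64, SE 0.0891, adjusted p 1.55e-72), 3.12-fold more. CDH2 (N-cadherin) went the other way, from 2131 and 2091 to 1121 and 1165 (-0.89, SE 0.0857). CTNNA1, the catenin that links cadherins to actin, fell from 4425 and 4272 to 2287 and 2337 (-0.91, SE 0.0705), and CTNNB1 (beta-catenin) from 3128 and 3118 to 1955 and 1979 (-0.67, SE 0.0741). The groups were far apart in relation to their spread for these 4 genes, and each call held in every fit without a library. Over the 20 junction genes tested, 3 rose and 6 fell (45.0% called, beside 25.0% of all regions with a mean of at least 100; median -0.14).

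Of 11 integrins tested, 5 rose (45.5%, beside 7.18% of all regions) and none fell, with a median of 0.53. All 5 were among the 8 with a mean of at least 100, a level at which 25.0% of all regions were called in either direction. ITGB8 went from 155 and 174 to 292 and 396 (1.06, SE 0.202), and ITGA2, part of a collagen receptor, from 117 and 109.7 to 219 and 216 (0.94, SE 0.222). ITGA3, ITGAV and ITGB4 were the others, named after their values were seen, at 0.93, 0.72 and 0.53. Both libraries of siTARG1 were above both of siControl for all 5. The call of ITGA2 was lost in every fit without a library and that of ITGB8 in 1. Among the 5 integrins whose 3′ UTR holds none of the common 7-mers above the median was -0.16, and 2 of these 5 rose and none fell. Of 16 listed receptor tyrosine kinases 4 rose and none fell (25.0% called, beside 16.4% of all regions), with a median of 0.24. Of the 10 with a mean of at least 100, 3 were called, beside 25.0% of all such regions. EGFR was at 338 and 319 in siControl and 813 and 921 in siTARG1 cells (1.39, SE 0.132). FGFR1 was at 156 and 205 against 329 and 324 (0.86, SE 0.192, called in 2 of the fits without a library). FGFR2 (1.18) and EPHA2 (0.59) were named after their values were seen. ERBB4, a receptor of this kind that the list does not hold, also named afterwards, fell (-1.81, SE 0.223).

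Signalling below these receptors gave single large changes and no common direction. EIF4EBP1, the repressor of cap-dependent initiation that mTOR inactivates, went from 737 and 622 to 171 and 165 (-2.01, SE 0.159). AKT2 went from 1639 and 1516 to 847 and 884 (-0.87, SE 0.097), while AKT1 was level. EIF4EBP1 and AKT2 showed no overlap and kept their calls in every fit without a library. Over the 19 genes of the PI3K, AKT and mTOR list 1 rose and 2 fell (median 0.02). Of these genes 15.8% were called, and 18.2% of the RAS and MAPK list that follows, beside 16.4% of all regions. NF1, which turns RAS off, fell from 1465 and 1404 to 868 and 921 (-0.68, SE 0.0969), and NRAS rose from 116 and 153 to 251 and 244 (0.89, SE 0.216, called in 1 fit without a library), within a list of 22 RAS and MAPK genes of which 1 rose and 3 fell. In TGF-beta and BMP signalling, 4 of 11 receptors fell (36.4%, beside 9.19% of all regions) and none rose, with a list median of -0.04 and 1 call among the 5 with a mean of at least 100. They were TGFBR2 (-0.47, SE 0.158) and, named after their values were seen, BMPR2 (-1.35), TGFBR3 (-1.39) and ACVR2B (-2.24). SMURF2, a ubiquitin ligase that removes these receptors, fell from 395 and 410.1 to 135 and 134 (-1.58, SE 0.181), and the BMP transducers SMAD5 (0.81, SE 0.28) and SMAD1 (0.69, SE 0.228) rose. TGFBR2, SMAD5 and SMAD1 lost their calls in every fit without a library.

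Genes of the extracellular matrix changed in both directions. Of 13 laminin and basement membrane genes, 6 rose and 2 fell (61.5% called, median 0.16), with LAMB3 above and HSPG2 (perlecan) at 656 and 559 against 1268 and 1102 (0.96, SE 0.12). Of 29 matrix glycoproteins and proteoglycans, 6 rose and 6 fell (41.4% called). Of 14 collagens 2 fell and none rose (14.3%), and of 23 matrix enzymes and inhibitors 4 rose and 1 fell (21.7%). The share called was 16.4% over all regions and 25.0% over those with a mean of at least 100. VCAN (versican), a large proteoglycan, went from 7814 and 7952 to 1662 and 1997 (-2.11, SE 0.0823), 4.32-fold lower. IGFBP3 went from 1411 and 1498 to 594 and 652 (-1.22, SE 0.104), and IGFBP4, which also binds insulin-like growth factors, from 416 and 375 to 728 and 681 (0.83, SE 0.132). The groups did not overlap in any of these. Fibronectin (FN1) fell from 931 and 881 to 674 and 693 (-0.41, SE 0.11), a call that no fit without a library kept.

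The epithelial keratins KRT8 and KRT18, which pair into filaments, fell together, KRT8 from 12242 and 12577 to 5618 and 6528 (-1.03, SE 0.0735) and KRT18 from 12350 and 11637 to 4718 and 5421 (-1.24, SE 0.0738). Their neighbouring genes on chromosome 12 have many pseudogenes, which a count with many hits per read can split. The ovarian marker WT1 fell from 171 and 153 to 64.9 and 82.1 (-1.15, SE 0.269), while the mucin MUC1 rose from 80.9 and 157 to 312 and 258 (1.26, SE 0.471). WT1 was called in 2 of the fits without a library and MUC1 in 1, where the value of MUC1 ran from 0.85 (without siControl replicate 1) to 1.82 (without siControl replicate 2). The epithelial and ovarian list as a whole had 4 rises and 5 falls among 19 (47.4% called, beside 25.0% of all regions with a mean of at least 100). The summed level of that list, given above, was lower in both siTARG1 libraries. KRT8, KRT18 and MUC16, which hold the most counts of the list, were lower in both, whereas CDH1, KRT7, MUC1 and CP, for example, were higher. The part of this list in the other results was not tested.

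Among the 77 lists, antigen presentation had the most rises of those without a fall. Of 18 genes tested 8 rose (44.4%, beside 7.18% of all regions), with a median of 0.50. All 8 were among the 12 with a mean of at least 100, a level at which 25.0% of all regions were called in either direction. PSMB9, a subunit of the immunoproteasome, went from 68.6 and 66.8 to 169 and 142 (1.20, SE 0.274), and was called in 2 of the fits without a library. Others that rose, named after their values were seen, were HLA-C (1415 and 1261 against 2346 and 2416, log2 fold change 0.83), HLA-B (0.72), B2M (2551 and 2611 against 3866 and 3622, log2 fold change 0.54), CD74 (0.51), ERAP1 (0.50) and TAPBP (0.29), which form, load or trim the ligands of MHC molecules. Reads of the HLA genes can match each other and are uncertain. Interferon-stimulated genes gave 6 rises and 4 falls among 37 (median 0.19), with BST2 (tetherin), which holds budding virus at the membrane, down from 707 and 596 to 233 and 290.1 (-1.33, SE 0.157). Among 19 NF-kB targets and cytokines 3 rose and 4 fell. The shares called were 27.0% for the interferon list and 36.8% for the NF-kB list, beside 25.0% of all regions with a mean of at least 100. TNFAIP2 rose from 170 and 145 to 318 and 298 (0.96, SE 0.193), whereas ICAM1 fell from 199 and 207 to 109.9 and 93.3 (-0.99, SE 0.233) and CXCL1 fell as described. ICAM1 was called in 1 of the fits without a library and TNFAIP2 in 3. The chemokines CXCL2 (66.8 and 66.8 against 11.7 and 10.1) and CXCL3 (62.4 and 39.3 against 9.99 and 12.4), named after their values were seen, were the other falls.

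**Figure D3:**
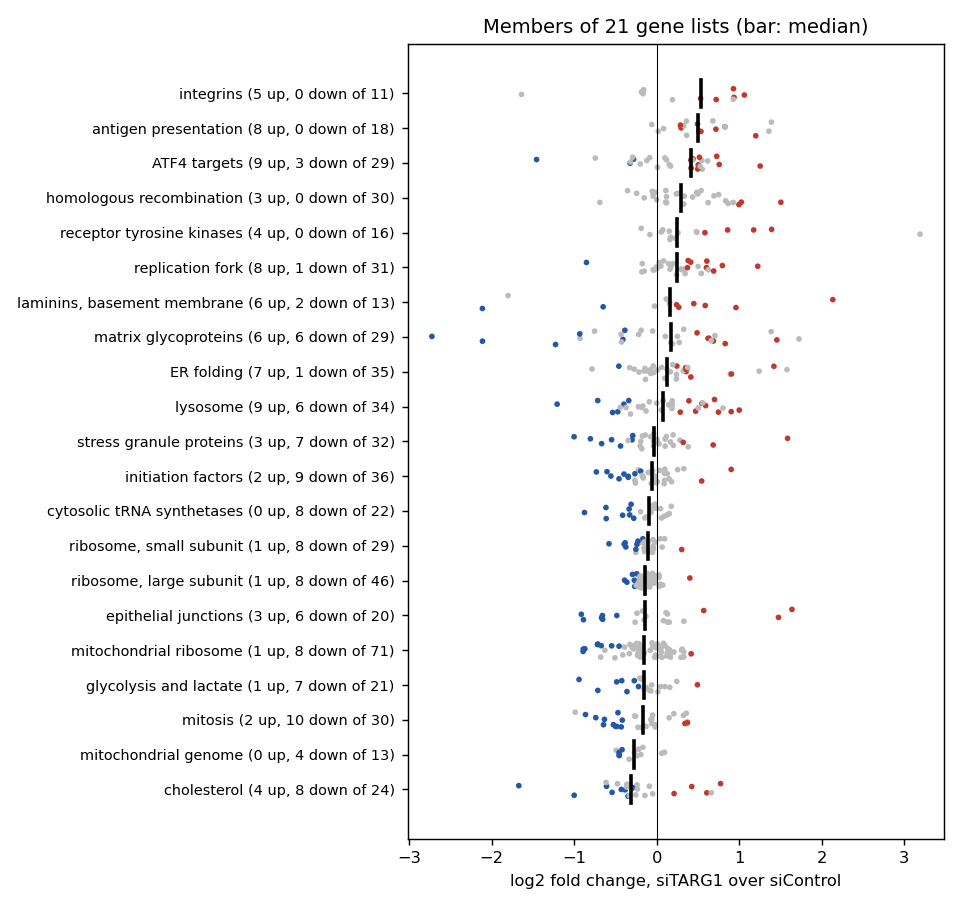
Log2 fold change of coding footprints for the tested members of selected gene lists (horizontal axis), 1 point per region, with called regions in colour and the median of each list as a line. Integrins (median 0.53) and antigen presentation (0.50) lie to the right, while cholesterol synthesis (-0.31) and mitosis (-0.17) lie to the left.

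Single genes of central metabolism changed by large amounts. IDH1, the cytosolic NADP-dependent isocitrate dehydrogenase, went from 10693 and 9948 to 3236 and 3305 normalized counts (-1.66, SE 0.0657), 3.16-fold lower. ME1, the cytosolic malic enzyme, went from 1061 and 973 to 350.4 and 349.7 (-1.54, SE 0.122), and IDH3B of the mitochondrial isocitrate dehydrogenase from 346 and 339.7 to 158 and 192 (-0.98, SE 0.185). DLD, the E3 enzyme of the pyruvate and oxoglutarate dehydrogenases, rose from 544 and 530.5 to 851 and 875 (0.68, SE 0.116), as did PDHX, which was described above. All of these were apart and kept their calls in each fit without a library. Of the 27 genes of the TCA cycle and pyruvate list 2 rose and 5 fell (25.9% called, close to the 25.0% of all regions with a mean of at least 100; median -0.05), and of 21 genes of glycolysis and lactate 1 rose and 7 fell (38.1%, median -0.15). The riser was SLC16A1, a lactate and pyruvate carrier (0.50, SE 0.0958).

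In the respiratory chain, the succinate dehydrogenase subunits SDHC (982 and 961 against 305 and 310.4, log2 fold change -1.66, SE 0.124) and SDHB (427 and 497 against 252 and 297, log2 fold change -0.75, SE 0.162) fell, the second with a call in 2 of the fits without a library. CYCS (cytochrome c), the electron carrier that also starts apoptosis in the cytosol, rose from 171 and 223 to 464 and 610 (1.45, SE 0.184). Among 30 nuclear genes of complexes II to V there were 4 rises and 2 falls, among 30 of complex I there were 1 and 5, and among the 13 genes of the mitochondrial genome none and 4 (median -0.27). The shares called were 20%, 20% and 30.8%, beside 25.0% of all regions with a mean of at least 100. Of 15 peroxiredoxins and thioredoxins 2 rose and 4 fell (40% called), with PRDX3 lowest. TXNRD1 was at 850 and 895 against 584 and 613 (-0.54, SE 0.114) and TXNIP, which inhibits thioredoxin, at 1377 and 1244 against 2229 and 2048 (0.71, SE 0.0911). GSR, which regenerates glutathione, rose from 475 and 453 to 747 and 723 (0.66, SE 0.124).

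Cholesterol synthesis had 12 of 24 genes called (beside 25.0% of all regions with a mean of at least 100), 8 lower and 4 higher, with a median of -0.31. MSMO1, which demethylates sterols, went from 609 and 682 to 199.8 and 206 (-1.67, SE 0.152). SQLE, the squalene epoxidase, went the other way from 111 and 107 to 177 and 197 (0.78, SE 0.234), as did SREBF2, the transcription factor of the pathway, from 341 and 366 to 568 and 507 (0.61, SE 0.144). SQLE lost its call in every fit without a library and SREBF2 in 2. The fatty acid desaturases FADS1 (976 and 1093 against 489 and 482, log2 fold change -1.09, SE 0.117) and FADS2 (857 and 852 against 427 and 405, log2 fold change -1.04, SE 0.122), which are neighbours on chromosome 11, fell by like amounts.

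In the stress response through ATF4, 9 of 29 targets rose and 3 fell (41.4% called, beside 25.0% of all regions with a mean of at least 100), with a median of 0.41 over all tested and 0.17 over those with a mean of at least 50. SESN2, an inhibitor of mTORC1 signalling, rose from 80.9 and 79.9 to 228 and 154 (1.26, SE 0.269) and DDIT4, with a like role, from 211 and 204 to 359 and 328 (0.73, SE 0.175). ATF4 itself rose from 380 and 334 to 514 and 500.4 (0.51, SE 0.145), a call that no fit without a library kept. PSAT1 of serine synthesis fell from 1050.3 and 876 to 343 and 362 (-1.45, SE 0.132), and ASNS (asparagine synthetase) from 1829.9 and 1565 to 1419 and 1383 (-0.28, SE 0.0967), with -0.17 and no call without siControl replicate 1 and -0.39 without siControl replicate 2. SESN2 was called in 3 of the fits without a library and DDIT4 in 1. In the endoplasmic reticulum 7 of 35 folding and entry genes rose and 1 fell, with ERO1A, the oxidase that makes disulfides, at 219.7 and 238 against 600.1 and 625 (1.42, SE 0.149). Among 30 cytosolic and mitochondrial chaperones 4 rose and 7 fell. The shares called were 22.9% for the endoplasmic reticulum list and 36.7% for the chaperones, beside the same 25.0%. FKBP4, a co-chaperone of HSP90, went from 795 and 765 to 261 and 214 (-1.71, SE 0.144) and HSPA1A, an inducible HSP70, from 4968 and 4513 to 6831 and 6468 (0.49, SE 0.0705). HSPA1A has a near-identical copy, so its value is uncertain.

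Of 31 polymerase and fork genes of DNA replication 8 rose and 1 fell (29.0% called, median 0.24), and of 30 mitosis genes 2 rose and 10 fell (40.0%, median -0.17), beside 25.0% of all regions with a mean of at least 100. The difference between these lists was not tested. WDHD1, a fork scaffold, went from 195 and 171 to 436 and 422 (1.23, SE 0.171), while RPA2, which binds single-stranded DNA, went from 378 and 380.3 to 221 and 199 (-0.85, SE 0.17). In the licensing list MCM3, a subunit of the replicative helicase, went from 628 and 467 to 1183 and 1195 (1.11, SE 0.13). ANLN, a scaffold of the cleavage furrow, went from 589 and 594 to 338 and 312 (-0.86, SE 0.14), and MKI67, the Ki-67 coat of mitotic chromosomes, from 881 and 824 to 504 and 521 (-0.74, SE 0.118). These 5 genes kept their calls in each fit without a library and showed no overlap. Homologous recombination and Fanconi anaemia genes had a median of 0.29, with 22 of 30 above 0, beside 50.4% of all regions. Of the 30, 3 were called, all higher, a share of 10.0% beside 16.4% of all regions. Only 9 of the 30 had a mean of at least 100, of which 1 was called, and 11.5% of all regions from 30 to 100 were called. The clustered histone genes had 7 falls and no rise among 53 (13.2% called, beside 16.4% of all regions). All 7 were among the 47 with a mean of at least 100, a level at which 25.0% of all regions were called. The falls were led by H1-3 (1671 and 1882 against 1170 and 1127, log2 fold change -0.63, SE 0.0947).

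In mRNA decay, DCP2 and CNOT1, the scaffold of the main deadenylase (396 and 322 against 678 and 674, log2 fold change 0.91, SE 0.141), rose. TNRC6B, which links Argonaute to deadenylation, fell from 304 and 281 to 84.1 and 107 (-1.63, SE 0.218), and TOB2, an adaptor of the same deadenylase, from 353 and 358 to 195 and 198 (-0.86, SE 0.173). CNOT1, TNRC6B and TOB2 kept their calls in each fit without a library. Of 16 decapping genes 3 rose and 1 fell, of 25 deadenylation, exosome and poly(A) genes 3 and 3, of 13 in nonsense-mediated decay 3 and none, and of 13 in the small RNA machinery none and 2. The shares called were 25%, 24%, 23.1% and 15.4%. Over all regions the share was 16.4%, and 25.0% over those with a mean of at least 100. The death receptor FAS fell from 289 and 268 to 78.2 and 58.5 (-2.02, SE 0.236) and TNFRSF10B, a TRAIL receptor, fell from 404 and 393 to 169 and 179 (-1.20, SE 0.173), while the decoy receptor TNFRSF10D rose from 69.4 and 54.8 to 159 and 155 (1.33, SE 0.278). HIF1A, the oxygen-regulated transcription factor, fell from 1445 and 1522 to 812 and 882 (-0.81, SE 0.0987).

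Degradation lists were mixed. Among 40 ubiquitin conjugation genes 6 rose and 5 fell, with UBE2V2 (58.0 and 72.7 against 248 and 207, log2 fold change 1.81, SE 0.255) and UBE2B (115 and 155 against 315 and 358, log2 fold change 1.33, SE 0.205) highest. Proteasome subunits gave 1 rise and 5 falls among 32. Of 34 lysosomal genes 9 rose and 6 fell, with LAMP2 of the lysosomal membrane at 806 and 907 against 1407 and 1374 (0.70, SE 0.101) and the beta-galactosidase GLB1 at 487 and 489.9 against 195 and 231 (-1.21, SE 0.162). The groups were apart in all 4 of these genes. Of the ubiquitin, proteasome and lysosome lists 27.5%, 18.8% and 44.1% were called, beside 25.0% of all regions with a mean of at least 100. Solute carriers had 28 rises and 22 falls among 214 (23.4% called, beside 16.4% of all regions). Of the 95 with a mean of at least 100, 33 were called. Named among them were SLC6A15 (1.73, SE 0.222) and the sulfate transporter SLC26A2 (-2.15, SE 0.206), which went from 420.1 and 458 to 79.9 and 120.3. Zinc finger genes with names that begin with ZNF gave 8 rises and 9 falls among 347 (4.90%). Of the 54 with a mean of at least 100, 11 were called, beside 25.0% of all such regions.

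Carriers of the 7-mers shown above were then counted among all 8026 regions with a mean of at least 50. The first pair occurred in the 3′ UTR of 1548 (19.3%, and 17.2% of all 18682 annotated 3′ UTRs), on the strand of the mRNA. It was held by 382 of the 1001 regions called lower (38.2%), by 116 of the 769 called higher (15.1%) and by 16.8% of those not called. The median log2 fold change of its carriers was -0.17, beside 0.02 for the others. The second pair occurred in 2047 (25.5%, and 22.3% of all 3′ UTRs). It was held by 48.4% of the regions called higher, 24.9% of those called lower and 22.8% of those not called, with medians of 0.11 and -0.03. These words were ranked on the same fold changes, so the shares are a description. Of the 10 largest falls 5 hold the first pair and 1 the second, and of the 10 largest rises 7 hold the second and 1, DCP2, also the first.

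The pairs were seen alone and together. Among 810 regions with the first pair alone, 27.0% fell and 4.44% rose, and among 1309 with the second alone, 6.57% fell and 22.3% rose. Among the 738 with both, 22.1% fell and 10.8% rose. The 5169 regions with neither gave 361 rises (6.98%) and 533 falls (10.3%). The directions were those of all carriers in each of 5 bins of 3′ UTR length, with differences in mean from -0.41 to -0.29 for the first pair and from 0.13 to 0.24 for the second. In the RACK1-Mut contrast carriers and others differed in mean by 0.035 for the first pair and by 0.041 for the second, against -0.26 and 0.14 here. Only 10 regions were called in that contrast, and the words were chosen on the siTARG1 fold changes, so values nearer 0 there decide nothing. The cause of the differences was not tested. Single genes do not follow the words throughout: IDH1, CTNNA1, PSAT1, TNRC6B and VCAN hold both and fell, ITGB8 and TNKS2 hold both and rose, G3BP1 holds both and was not called, and CDH2, HIF1A, SMURF2 and KIF5B hold the second alone and fell. CILP, KRT8, KRT18 and EIF4EBP1 fell and LAMB3 and EGFR rose with neither.

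**Figure D4:**
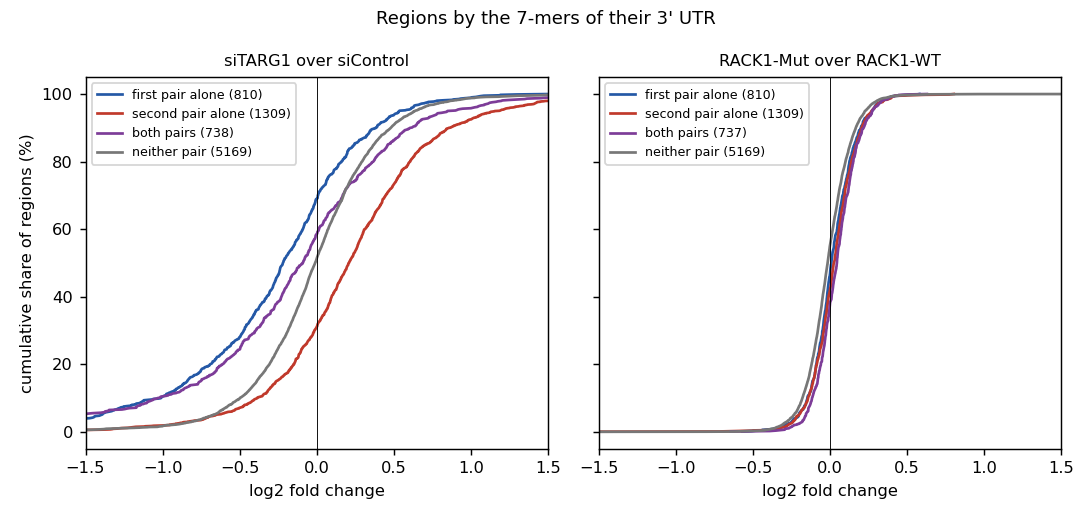
Cumulative share of regions (vertical axis) by log2 fold change of coding footprints (horizontal axis) for regions whose 3′ UTR holds GAACATA or TGAACAT alone (810), GAATATA or TGAATAT alone (1309), both (738) or neither (5169). The first curve lies to the left of the curve for neither (medians -0.22 and -0.01) and the second to its right (median 0.21).

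Footprints in 5′ UTRs, which mark ribosomes before the main start codon, were read as a side measure. Of 5455 regions with at least 10 such counts 25 were called (0.458%), 23 lower and 2 higher, and 22 of the 25 were also called in the coding sequence. IDH1 had 444.7 and 501 normalized 5′ UTR counts in siControl and 136 and 96.7 in siTARG1 cells (-2.01, SE 0.213), CILP 61.5 and 60.8 against 4.16 and 3.37 (-4.00, SE 0.649) and VCAN 141 and 104 against 28.3 and 32.6 (-2.02, SE 0.338), in each case the direction of the coding sequence. MARCKS (-1.28, SE 0.237), named after its values were seen, and KRT18 (-1.83, SE 0.373) followed. FAU, a fusion of a ubiquitin-like protein and a ribosomal protein that was also named after its values were seen, had 5′ UTR counts of 70.3 and 73.9 against 24.1 and 30.4 (-1.41, SE 0.383, adjusted p 0.0219) with coding counts of 1510 and 1675 against 1570 and 1511 (adjusted p 0.813). CANT1 and FGF18, named after their values were seen, were the other regions called in the 5′ UTR alone, at -1.32 and 2.26 there and -0.55 and 1.32 in the coding sequence. With 1 library left out 1 or 2 regions were called.

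Across regions called in the coding sequence with at least 50 5′ UTR counts, 419 of 478 (87.7%) had the same sign in both parts, beside 68.4% of all 1764 regions with so many counts. The Spearman correlation was 0.82 over the 478 and 0.57 over the 1764, across genes, which are not independent replicates, and both parts of a gene come from the same libraries. Whether the parts changed by different amounts was tested by an interaction term, and 0 of 5334 regions (0%) were called for the 5′ UTR by DESeq2, with 105 at an unadjusted p under 0.05 and 0 by edgeR's quasi-likelihood test. The same test for the 3′ UTR called 0 of 1766 (0%), with 28 at an unadjusted p under 0.05 and 0 by edgeR. FAU was therefore not shown to differ between its parts. Simulated differences of 1 and 2 on the log2 scale were placed only in regions with at least 50 UTR counts, with the spread of the coding counts. The DESeq2 interaction recovered 0% and 39% of them for the 5′ UTR. For the 3′ UTR it recovered 0% of both. With edgeR the shares were 32% and 89% for the 5′ UTR and 33% and 98% for the 3′ UTR. The absence of calls by DESeq2 therefore cannot decide whether the parts differed. Of the regions tested, 1764 of 5334 for the 5′ UTR and 209 of 1766 for the 3′ UTR had at least 50 UTR counts. Recovery by edgeR was not measured for the others, so its absence of calls decides nothing there. A p that misses the threshold does not show that the parts of a gene changed alike.

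**Figure D5:**
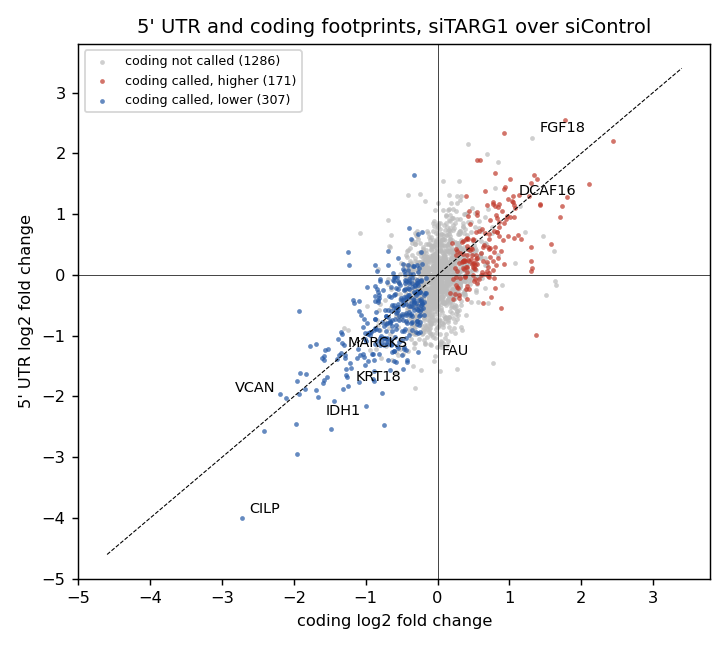
Log2 fold change of 5′ UTR footprints (vertical axis) against that of coding footprints (horizontal axis), 1 point per region with at least 50 5′ UTR counts, with regions called in the coding sequence in colour. Of the 478 called regions 419 have the same sign in both parts, and FAU lies below the rest at a coding value near 0.

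Footprints in 3′ UTRs made up 1.1% and 1.74% of exon counts in siControl and 1.52% and 1.85% in siTARG1, so the groups overlapped. Of 1795 regions with at least 10 such counts 1 was called (0.0557%). It was PLEKHS1, named after its values were seen, with 73.0 and 64.4 counts against 20.8 and 10.1 (-2.12, SE 0.465, adjusted p 0.00933). Its coding footprints also fell, from 417 and 530.5 to 109.9 and 112 (-2.09, SE 0.193).

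The siTARG1 contrast was tested against the RACK1-Mut contrast in 1 model of all 8 libraries. The difference was called in 1598 of 12955 regions (12.3%), and in 1428 of the 1974 regions called here (72.3%). In the RACK1 contrast alone 10 regions were called, 5 of them also called here. PRDX3, CILP, VCAN, CDH1, EGFR, ITGA2 and ITGB8, for example, differed between the contrasts, whereas RACK1 (adjusted p of the difference 0.182) and PARP14 (0.0788) were not shown to. RACK1 was itself called lower in RACK1-Mut than in RACK1-WT cells (-0.42, DESeq2 adjusted p 1.34e-08). In those cells its own mRNA was knocked down and RACK1 was put back, so the 2 falls of RACK1 cannot be read as a shared response.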

How the data were processed

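Ribosome-protected fragments of 2 siControl and 2 siTARG1 libraries (and 4 RACK1 libraries, for 1 test) were measured. Per the submitters' processing notes and methods, the authors removed contaminant reads with Bowtie 1.1.2 and aligned the rest with TopHat2 2.1.1 to GENCODE transcripts on hg19 (GRCh37), with many hits allowed per read, so counts of near-identical copies are uncertain. The deposited values are whole-number counts that the authors made, per the file headers, with Plastid for exons, 5′ UTR, coding sequence and 3′ UTR of 20165 merged regions. Headers and methods differ in the offset that places a read, which matters most at the edges of a coding sequence, and whether reads with the same molecular identifier were collapsed is not stated. The deposited RPKM columns were not used. RNA-seq was not analysed here, so values are footprint abundance, not translation efficiency.

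Groups and replicate numbers came from the titles. Coding counts of regions with at least 10 counts over the 4 libraries were fitted with DESeq2 1.42.0 (R 4.3.3; median-of-ratios size factors, Wald test, Benjamini-Hochberg adjusted p under 0.05). 5′ and 3′ UTR counts used the same test with the coding size factors, and parts were compared by an interaction term with a term for each library. Coding totals of 3100947 to 4207939 per library limit precision mainly for regions with few counts. Alternatives were edgeR 4.0.16 (quasi-likelihood test), TMM factors, other count filters, exon counts, a replicate block, all 8 libraries, a threshold of 1 on the log2 fold change, no mitochondrial or top 10 regions, and each library left out. The DESeq2 fits of coding counts, UTR counts and their interaction, and the edgeR fits of coding counts and of the interaction, were tested on simulated data. The members, the 77 gene lists in 36 classes and the rules were chosen with earlier results of these data known, and alternatives for the 7-mers were added after seeing the data. Of 2679 listed genes 2599 matched a region of their own. Symbols, coordinates and 3′ UTRs came from a later GENCODE release on GRCh37, by transcript, for 19160 regions with 1 symbol. Another 452 regions join several symbols and were not named.

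Named are OARD1, RACK1, PARP14, G3BP1 and AKT1. Among called regions whose normalized counts averaged 100 or more, with groups that do not overlap, the 10 largest rises and falls, and up to 3 of each per gene list, were also named, 198 genes in all. Interaction tests would have added up to 5 regions per direction. Genes named outside this rule are marked as such in the text. Mature miRNA sequences came from RefSeq. Values of some single genes counted in the gene lists are not reported here.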

Additional observations from a re-analysis of the deposited data

How the results depend on the processing

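Of the 1974 coding calls, edgeR kept all and made 3470, the replicate block made 1125 (1120 shared), a test against a log2 fold change of 1 made 70, and leaving out a library gave 564 to 744. TMM factors, other filters, exon counts, all 8 libraries and leaving out mitochondrial and top regions gave 1856 to 2804. The share of calls that were higher was 43.9%, and 24.3% with the threshold of 1, 32.2% to 42.5% without a library and 46.5% with edgeR. In 5′ UTRs, 25 calls became 100 with edgeR, 3 with the block and 1 to 2 without a library. In 3′ UTRs, 1 call became 0 with its own size factors or with the block, and 0 to 1 without a library. The difference from the RACK1-Mut contrast gave 2695 calls with edgeR against 1598. Of listed genes 483 were called, against 755 with edgeR, 294 with the block, 157 to 201 without a library and 280 without carriers of the 4 common 7-mers. Each list keeps fewer genes in the last setting by construction, and the median kept its sign under every alternative in 47 of 77 lists. For the first pair of 7-mers the difference in mean ran from -0.27 to -0.24 without a library. Values near 0 changed sign: G3BP1 was -0.0027 with exon counts and ran from -0.083 (without siControl replicate 1) to 0.083, and AKT1 ran from -0.068 (without siTARG1 replicate 1) to 0.11, with -0.0036 without siControl replicate 2. The cause was not tested. Deviations of single regions were hardly correlated between same-numbered libraries (0.031 over 8148 regions), although library totals and 5′ UTR shares went with the replicate number. A shared batch is therefore not excluded. With the block 40 of 198 named genes lost the call, PARP14 included. Of the named genes, 96 were called in every setting but the threshold of 1. Where 1 library is left, its spread is taken from the other group. Depth limits regions with few counts: 935 had no adjusted p.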

Other observations

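Regions just behind the largest changes, chosen after their values were seen, add membrane and signalling genes. CAPNS1, the small subunit of calpains, had 2515 counts in both siControl libraries and 698 and 719 in siTARG1 cells (-1.83, SE 0.0883). HMGN1, a nucleosome-binding protein, went from 632 and 675 to 159 and 186 (-1.93, SE 0.157), and ERBB4, a receptor for neuregulins, from 282 and 275 to 75.7 and 84.3 (-1.81, SE 0.223), against the direction of EGFR. The mucin MUC15 rose from 312 and 315 to 1069 and 1111 (1.80, SE 0.121), and CD46, which protects cells from complement, from 225 and 272 to 818 and 797 (1.71, SE 0.142). The groups did not overlap in any of these.

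The melanocyte transcription factor MITF, also chosen after its values were seen, was near the floor in siControl cells (0.879 and 1.19 normalized counts) and at 27.5 and 19.1 in siTARG1 cells, with an adjusted p of 0.00315 and a fitted change (4.52, SE 1.25) that depends on very few counts.

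The 4 common 7-mers of 3′ UTRs were also set against the seeds of 2370 mature human miRNAs. The seed (bases 2 to 8) of hsa-miR-6074 is complementary to TGAATAT, and none of the seeds is complementary to any of the other 3.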
